A study of Homo sapiens with 16 samples.

Results

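The lysosome and autophagy genes described here are 33 genes picked by symbol from a count table of 42351 genes. They are membrane proteins of the lysosome, its peptidases, its glycosidases and sulfatases, its lipid-handling proteins, factors that start the autophagosome, the ATG8 proteins with the cargo receptor SQSTM1, and the transcription factor TFEB. PolyA RNA was sequenced from 2 lung cancer cell lines at 0, 3, 6 and 12 h of hepatocyte growth factor (HGF), the ligand of the receptor tyrosine kinase MET, in biological duplicates (16 libraries). The wt MET groups are cells that the labels name A549, a lung adenocarcinoma line, whereas the study's text names its wt MET line EKVX. The MET∆14 groups are NCI-H596, a lung adenosquamous line whose MET transcript lacks exon 14, the exon of the juxtamembrane segment that marks the receptor for degradation. All groups were deprived of serum before HGF, for 12 h by the labels and longer by the study's methods, and the labels give no HGF dose. Each MET status is 1 cell line, so line and MET status cannot be told apart. The 0 h libraries are the only ones without HGF, so HGF and time cannot be told apart. In such bulk RNA fewer cells of a type and less RNA per cell cannot be told apart either.

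Autophagy encloses cytoplasm in a double membrane, the autophagosome, which then fuses with the lysosome, where acid hydrolases digest the contents. The ULK1 kinase complex and the ATG14 and UVRAG forms of the VPS34 lipid kinase start and shape the membrane. WIPI proteins read the lipid made there, and ATG8 proteins such as MAP1LC3B and GABARAPL1 are attached to the membrane and bind receptors such as SQSTM1 that carry cargo. TFEB and related factors switch on many lysosomal genes through the CLEAR element, an E-box with the core CACGTG, when mTORC1 at the lysosome is inactive. FOXO factors, which AKT keeps out of the nucleus, are known to switch on several autophagy genes.

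The libraries held 13226488 to 21970052 counts in wt MET cells and 10158590 to 23909304 in MET∆14 cells. All 33 members were among the 15067 genes that passed the filter on low counts. The smallest count of a member in any library was 38, for CTSH in wt MET cells. Levels are given as CPM, the count divided by the scaled size of its library. For the cell type markers in this paragraph the unscaled library total was used instead, so their CPM are not on the scale of the members. A call means an adjusted p under 0.05 by the quasi-likelihood test of edgeR, adjusted by Benjamini and Hochberg across all 15067 genes. Folds and standard errors (SE) come from that model. The MET∆14 12 h duplicates differed most: the median absolute log2 difference between duplicates over the members was 0.25 there and 0.06 to 0.13 in the other 7 conditions, with 22 of 33 members lower in replicate 1. Both lines expressed the epithelial keratins KRT8 (471 to 999 CPM in wt MET cells, 573 to 883 CPM in MET∆14 cells) and KRT18 (1160 to 1470 and 390 to 684 CPM). Of the 5 squamous markers, KRT5 was at 1850 to 2400 CPM in MET∆14 cells and at most 0.227 CPM in wt MET cells, KRT14, KRT6A and TP63 were likewise high in MET∆14 cells alone, and SOX2 was low in both lines (0.354 to 2.57 and 0.227 to 1.27 CPM). The epithelial genes EPCAM (0.817 to 2.94 CPM) and CDH1 (2.37 to 12.7 CPM) were low in wt MET cells. The alveolar type 2 markers SFTPA1 and SFTPB were at 0 in every library, and so was the macrophage marker AIF1, with the leukocyte marker PTPRC at most at 0.169 CPM. Of the 6 macrophage and leukocyte markers, CD68, itself a lysosomal protein, gave most of the summed level of 33 to 40.3 CPM in wt MET cells and 121 to 192 CPM in MET∆14 cells. CD14 was at 7.19 to 24.2 CPM in MET∆14 cells and at most 0.438 CPM in wt MET cells.

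Before HGF the lines differed in nearly all members. Lysosomal genes were mostly higher in MET∆14 cells and autophagy genes mostly lower: 19 members were higher, 11 were lower, and HEXA, NAGLU and WIPI1 were not called. These were 57.6% and 33.3% of the members, beside 40.6% and 39.6% of all genes tested. The median log2 difference was 0.46 over the members and 0.02 over all genes. Of the 7 peptidases, 6 were higher and 1 lower, and of the 10 glycosidases and sulfatases, 7 were higher and 1 lower. All 3 of MAP1LC3B, GABARAPL1 and SQSTM1 were lower, as were 3 of the 4 initiation genes. With any 1 library left out, 18 of the higher and 8 of the lower calls remained, and the exceptions were TPP1, CD63, PSAP and ATG14.

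CTSH, an aminopeptidase of the lysosome, had the widest gap. It was at 5.14 and 4.81 CPM in the wt MET 0 h duplicates and at 433 and 411 CPM in those of MET∆14, which was 84.7-fold higher (log2 difference 6.40, SE 0.214, adjusted p = 1.35e-12). CTSA, the carboxypeptidase that also protects the sialidase NEU1, was at 58.1 and 60.7 CPM against 461 and 432 CPM (7.52-fold higher, log2 difference 2.91, SE 0.0847, adjusted p = 1.86e-13). CTSD, the main aspartic protease of the lysosome, was at 271 and 243 CPM against 1740 and 1570 CPM (6.43-fold higher, log2 difference 2.68, SE 0.132, adjusted p = 4.28e-11). The lines did not overlap in these 3 peptidases at 0 h or at any later time. TFEB was also higher, at 4.63 and 6.65 CPM against 24.8 and 23.0 CPM (4.23-fold, log2 difference 2.08, SE 0.168, adjusted p = 1.49e-08). The opposite order held for GABARAPL1, at 211 and 258 CPM in wt MET cells against 23.3 and 19.0 CPM (11.1-fold lower in MET∆14, log2 difference −3.48, SE 0.132, adjusted p = 2.64e-12). IDS, the sulfatase that opens heparan and dermatan sulfate breakdown, was at 403 and 375 CPM against 84.9 and 81.9 CPM (4.66-fold lower, log2 difference −2.22, SE 0.0774, adjusted p = 1.06e-12). MAP1LC3B was at 381 and 435 CPM against 88.6 and 88.9 CPM (4.6-fold lower, log2 difference −2.20, SE 0.123, adjusted p = 1.95e-10). For IDS the value is uncertain, since 75.9% of its exon length is shared on the same strand with the transcript AC244197.3, which had 5.99 to 25.9% as many counts.

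**Figure D1:**
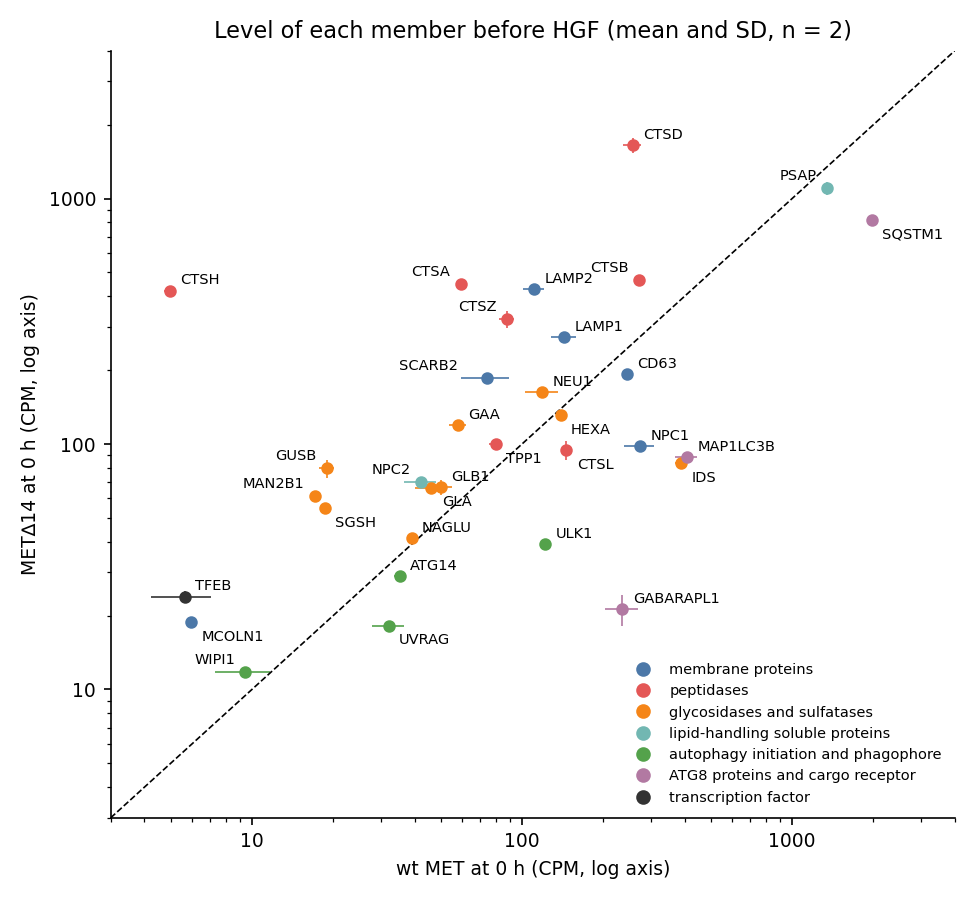
Level of the 33 members at 0 h, wt MET on the horizontal axis and MET∆14 on the vertical axis, in CPM on log axes, as the mean of 2 libraries with bars of 1 SD; the dashed line marks equal levels. CTSH, CTSA and CTSD lie far above the line, and GABARAPL1, MAP1LC3B and IDS far below it.

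Per kilobase of the longest annotated transcript (RPKM), the members with the most transcript at 0 h in MET∆14 cells were PSAP, the precursor of the saposins that help lipid breakdown, at 399 RPKM, CTSD at 374 RPKM and SQSTM1 at 287 RPKM. The lowest was UVRAG at 3.56 RPKM. In wt MET cells SQSTM1 (693 RPKM) and PSAP (493 RPKM) came first. Last were TFEB (1.56 RPKM) and CTSH (0.689 RPKM). The order of the top pair in wt MET cells depends on the gene length taken: with the union of all exons PSAP was at 435 RPKM and SQSTM1 at 261 RPKM.

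After HGF the members moved in both directions in each line. In wt MET cells 5 members were higher and 5 lower at 3 h, 6 higher and 11 lower at 6 h, and 5 higher and 13 lower at 12 h. Over all genes tested the shares higher and lower were 10.3% and 7.16% at 3 h, 16.4% and 17.8% at 6 h, and 16.9% and 18.2% at 12 h. MET∆14 cells had 3 members higher and 5 lower at 3 h, 4 and 6 at 6 h, and 1 and 13 at 12 h. All genes gave 15.5% and 16.1%, 21.6% and 22.5%, and 18.3% and 20.1%. The share of members lower at 12 h, 39.4% in each line, was above that background. So were those lower in wt MET cells at 3 h, 15.2%, and at 6 h, 33.3%. The share higher in MET∆14 cells at 12 h, 3.03%, was below it, and so, less far, were 9.09% at 3 h and 12.1% at 6 h. The other shares lay nearer to it. The median log2 fold change of the members was −0.14, −0.17 and −0.05 at 3, 6 and 12 h in wt MET cells, beside −0.04, −0.05 and −0.00 over all genes. It was −0.16, −0.08 and −0.24 in MET∆14 cells, beside −0.05, −0.04 and −0.02. The members' part of all counts was 0.675 to 0.726% in the wt MET libraries. In MET∆14 it was 0.875 and 0.828% at 0 h, 0.784 and 0.775% at 3 h, 0.736 and 0.773% at 6 h, and 0.58 and 0.695% at 12 h.

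Tested over the 3 times together, 21 members responded in wt MET cells, which is 63.6% beside 40.3% of all genes. For MET∆14 it was 18, which is 54.5% and near the 54.1% of all genes. By the sign of the mean response, 7 of the first were higher and 14 lower, and 5 of the second were higher and 13 lower. The means of SGSH, SQSTM1 and UVRAG in MET∆14 cells lay between −0.02 and 0.02, since their changes at single times went both ways. In a model with line and time as additive terms, the form the study used, 13 members (39.4%) had an effect of time averaged over the lines, 3 higher and 10 lower, against 30.6% of all genes. Such an average can be called where the lines differ. The 3 times of a line share its 0 h libraries and are not independent of each other.

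Several of these calls rest on single libraries. Those kept with each of the 16 libraries left out in turn were ULK1 at 3 h, 5 higher and 3 lower at 6 h, and 2 higher and 8 lower at 12 h in wt MET cells. The MET∆14 calls kept were 2 higher and 1 lower at 3 h, 2 and 2 at 6 h, and 1 and 7 at 12 h. For wt MET the 3 h count of 10 was 2 to 6 with any library other than the MET∆14 12 h pair left out, and 15 without MET∆14 12 h replicate 1. The wt MET 6 h count of 17 was 9 without wt MET 6 h replicate 1. The MET∆14 3 h count of 8 was 4 and 5 without 3 h replicates 1 and 2, and 18 without either 12 h library. The 6 h count of 10 was 5 without 0 h replicate 1 and 6 without 6 h replicate 2. The 12 h count of 14 was 9 without 0 h replicate 1. With each line fitted alone it was 10, of which 9 were among the 14, and the count over the 3 times went from 18 to 12. The 12 h calls lost there were CTSH, GLB1, HEXA, NPC2 and PSAP.

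**Figure D2:**
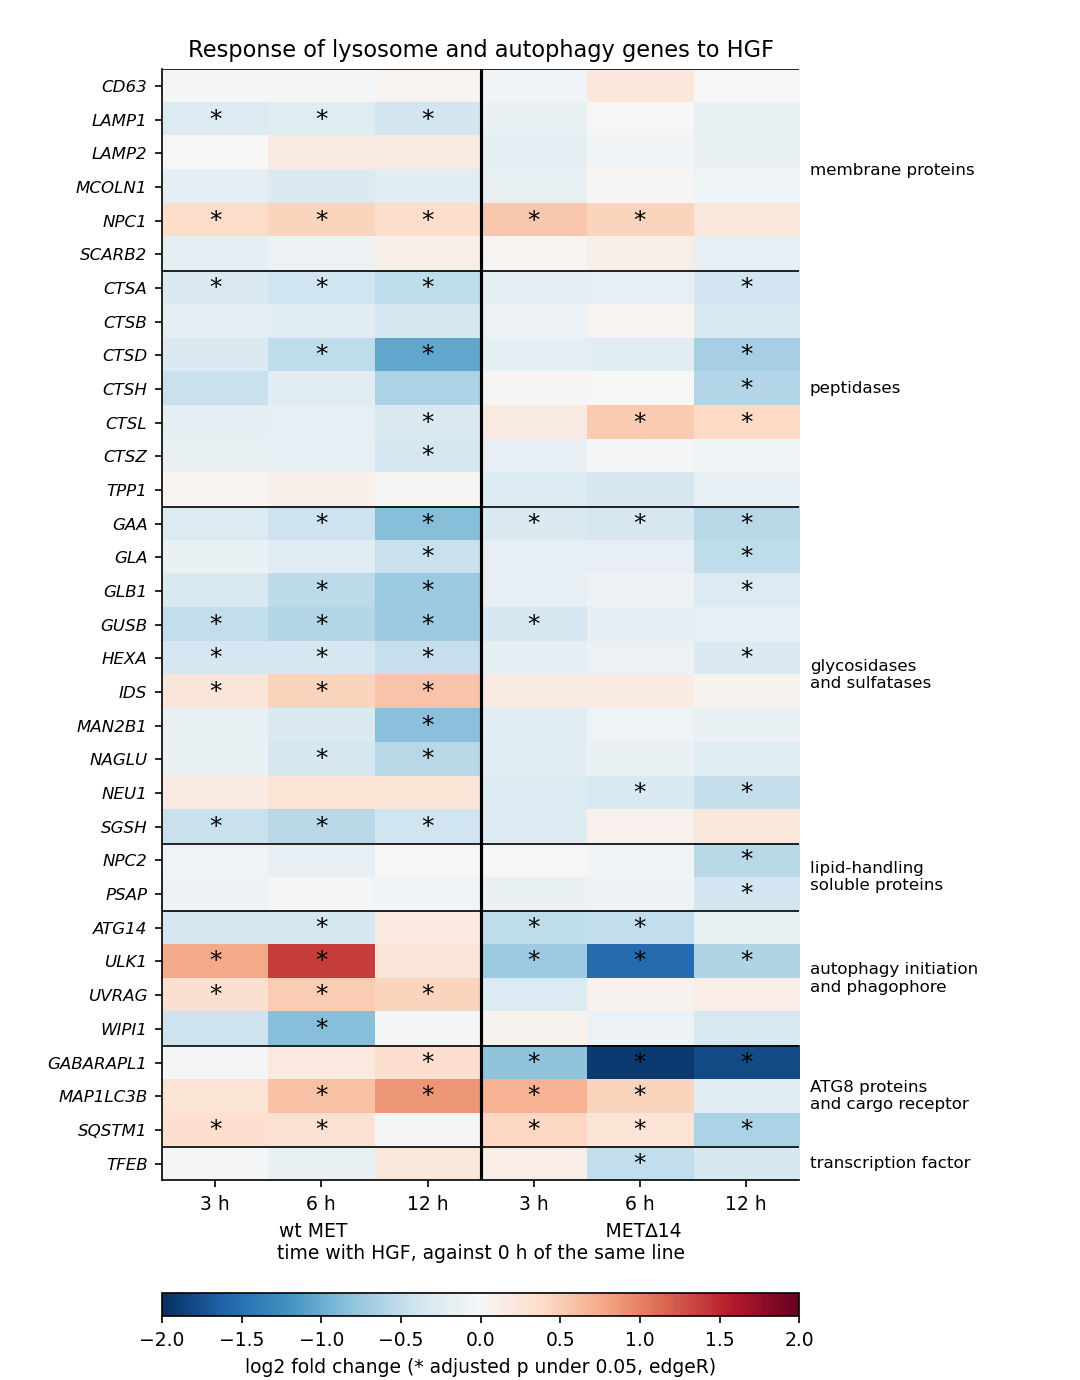
Log2 fold change of each of the 33 members against 0 h of the same line at 3, 6 and 12 h, grouped by role; red is higher, blue lower, and a star marks an adjusted p under 0.05. ULK1 is red in wt MET and blue in MET∆14, and the glycosidases and sulfatases are mostly blue at 12 h in both lines.

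Of the 4 members that start the autophagosome, ULK1 was called in opposite directions in the lines. The response over the 3 times differed between the lines also for UVRAG and WIPI1, calls lost in 9 and 10 of the 16 leave-one-out fits, and was not called as different for ATG14. ULK1, the kinase that receives nutrient signals and triggers autophagy, was at 121 and 123 CPM at 0 h, 209 and 200 CPM at 3 h, 273 and 366 CPM at 6 h, and 163 and 127 CPM at 12 h in the wt MET duplicates. The MET∆14 duplicates were at 39.2 and 39.0, 25.3 and 22.3, 14.4 and 12.6, and 29.7 and 21.0 CPM at the same times. Both wt MET libraries at 3, 6 and 12 h were above both at 0 h, and all MET∆14 libraries after HGF were below both at 0 h. ULK1 rose 1.68-fold at 3 h (log2 0.75, SE 0.153, adjusted p = 0.00362) and 2.62-fold at 6 h (log2 1.39, SE 0.154, adjusted p = 1.22e-05) in wt MET cells. Its 12 h value there, 0.25 on the log2 scale, was not called. ULK1 of MET∆14 cells fell 1.65-fold at 3 h (log2 −0.72, SE 0.172, adjusted p = 0.00517), 2.91-fold at 6 h (log2 −1.54, SE 0.179, adjusted p = 9.07e-06) and 1.52-fold at 12 h (log2 −0.60, SE 0.171, adjusted p = 0.0123). The 3 h call was lost without MET∆14 3 h replicate 2 (adjusted p = 0.0583). The 12 h call was lost without MET∆14 12 h replicate 2 (log2 −0.41, adjusted p = 0.138). The ULK1 gene lies at chr12:131894622-131923150 on the plus strand of hg38, and none of its exons overlap another annotated gene.

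UVRAG, which takes part in autophagosome maturation and endocytic traffic, followed ULK1 in direction in wt MET cells with smaller changes. It was at 29.0 and 35.2 CPM at 0 h and at 37.1 and 43.4, 46.1 and 45.0, and 43.8 and 43.3 CPM later, and all later libraries were above both at 0 h. The rise at 6 h was 0.50 in log2 (SE 0.106, adjusted p = 0.00195). The 12 h rise (log2 0.44, adjusted p = 0.00479) was lost without wt MET 0 h replicate 1 (log2 0.31, adjusted p = 0.0667). The 3 h rise (log2 0.32, adjusted p = 0.0499) was lost in 12 of 16 leave-one-out fits. The MET∆14 libraries held UVRAG between 14.3 and 20.1 CPM with no call at a single time. ATG14, the subunit that brings VPS34 to the site where autophagosomes form, was at 29.8 and 28.1, 18.4 and 22.0, 22.2 and 19.2, and 28.1 and 23.8 CPM in MET∆14 cells. The 3 and 6 h libraries lay below both at 0 h. Its fall was −0.51 at 3 h (SE 0.124, adjusted p = 0.00527) and −0.49 at 6 h (SE 0.122, adjusted p = 0.00433) on the log2 scale. These calls were lost without MET∆14 3 h replicate 1 (adjusted p = 0.0788) and without MET∆14 6 h replicate 2 (adjusted p = 0.0694), respectively. The wt MET libraries held ATG14 at 34.0 and 36.3, 30.0 and 25.6, 26.8 and 28.3, and 41.8 and 38.7 CPM. A fall at 6 h (log2 −0.35, adjusted p = 0.0341) was lost in 8 of 16 leave-one-out fits. Of the exon length of ATG14, 20.8% overlaps FBXO34 on the other strand. FBXO34 had 76.9 to 162% as many counts, so that ATG14 is uncertain where strand was not used. WIPI1, a reader of phosphatidylinositol 3-phosphate, was at 11.0 and 7.92, 7.95 and 6.14, 4.96 and 5.52, and 8.77 and 9.82 CPM in wt MET cells. It fell 1.8-fold at 6 h (log2 −0.85, SE 0.201, adjusted p = 0.00438). The call was lost without wt MET 0 h replicate 1 (log2 −0.60, adjusted p = 0.0733) or 6 h replicate 1 (adjusted p = 0.0531). WIPI1 lay between 8.05 and 13.1 CPM in MET∆14 cells and was not called. WIPI1 shares 28.1% of its exon length with ARSG on the other strand, which had 1.37 to 31.1% as many counts.

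Among the ATG8 proteins and their receptor, GABARAPL1 showed the largest fall of any member. GABARAPL1, which acts late in autophagosome formation, was at 23.3 and 19.0 CPM at 0 h, 13.4 and 11.0 CPM at 3 h, 5.09 and 5.96 CPM at 6 h, and 5.47 and 6.95 CPM at 12 h in MET∆14 cells. In wt MET cells it was at 211 and 258, 219 and 237, 259 and 277, and 292 and 301 CPM. Every MET∆14 library after HGF was below both at 0 h, and both wt MET 12 h libraries were above both at 0 h. GABARAPL1 fell 1.74-fold at 3 h (log2 −0.80, SE 0.146, adjusted p = 0.00067), 3.76-fold at 6 h (log2 −1.91, SE 0.158, adjusted p = 2.24e-07) and 3.46-fold at 12 h (log2 −1.79, SE 0.163, adjusted p = 1.26e-06) in MET∆14 cells. Each call was kept with any 1 library left out. The wt MET rise at 12 h (log2 0.34, SE 0.114, adjusted p = 0.0321) was lost in 7 of 16 leave-one-out fits, down to 0.20 without wt MET 0 h replicate 1. The gene lies at chr12:10212458-10223128 on the plus strand of hg38, and its near copy GABARAPL3 had 0 to 1 counts per library.

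MAP1LC3B, the ATG8 protein whose lipid-bound form marks autophagosomes, was at 381 and 435, 488 and 505, 616 and 611, and 751 and 750 CPM at 0, 3, 6 and 12 h in wt MET cells. It was at 88.6 and 88.9, 157 and 129, 116 and 125, and 66.3 and 87.4 CPM in MET∆14 cells. In wt MET cells all later libraries exceeded both at 0 h, while in MET∆14 cells the 3 and 6 h libraries lay above and the 12 h libraries below both at 0 h. It rose 1.5-fold at 6 h (log2 0.59, SE 0.117, adjusted p = 0.00133) and 1.84-fold at 12 h (log2 0.88, SE 0.117, adjusted p = 6.46e-05) in wt MET cells. In MET∆14 cells it rose 1.61-fold at 3 h (log2 0.69, SE 0.121, adjusted p = 0.000486). The 6 h rise (log2 0.44, SE 0.12, adjusted p = 0.0074) was lost without MET∆14 0 h replicate 1 or 2 or 6 h replicate 2 (adjusted p up to 0.0785). Its 12 h value there, −0.21 on the log2 scale, was not called. Its near copy MAP1LC3B2 had 11 to 174 counts per library, 0.855 to 2.03% of those of MAP1LC3B. SQSTM1 (p62), which binds ubiquitinated cargo and the ATG8 proteins, was at 844 and 787, 1110 and 1050, 1000 and 974, and 465 and 593 CPM in MET∆14 cells. These were above 0 h at 3 and 6 h and below it at 12 h without overlap. In wt MET cells it was at 1910 and 2020, 2540 and 2430, 2400 and 2460, and 1880 and 1960 CPM, so that the 12 h libraries overlapped those at 0 h. SQSTM1 was the 1 member called both higher and lower within a line. In MET∆14 cells it rose at 3 h (log2 0.41, SE 0.107, adjusted p = 0.00893) and fell 1.54-fold at 12 h (log2 −0.63, SE 0.107, adjusted p = 0.000343). The 3 h rise was lost without MET∆14 0 h replicate 2 (adjusted p = 0.0919) or 3 h replicate 1 (adjusted p = 0.0763). The 6 h rise (log2 0.28, adjusted p = 0.0463) was lost in 13 of 16 leave-one-out fits. The wt MET rises at 3 h (log2 0.34, adjusted p = 0.0395) and 6 h (log2 0.30, adjusted p = 0.0379) were lost in 6 and 4 of the 16 fits, among them those without either 0 h library of wt MET. SQSTM1 shares 22.4% of its exon length with MRNIP on the other strand, which had 0.51 to 8.57% as many counts.

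TFEB itself, the factor that drives lysosomal genes, had few counts in wt MET cells, at 4.63 and 6.65, 6.34 and 4.69, 4.54 and 5.72, and 6.53 and 6.66 CPM, with no call at any time. TFEB in MET∆14 cells was at 24.8 and 23.0, 27.1 and 25.2, 17.4 and 16.3, and 19.8 and 17.7 CPM. The 6 and 12 h libraries lay below both at 0 h. The 6 h fall (log2 −0.50, SE 0.146, adjusted p = 0.0113) was lost without MET∆14 0 h replicate 1 (adjusted p = 0.0746) or 6 h replicate 2 (adjusted p = 0.0874). These values are transcript levels and say nothing of where the TFEB protein was.

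**Figure D3:**
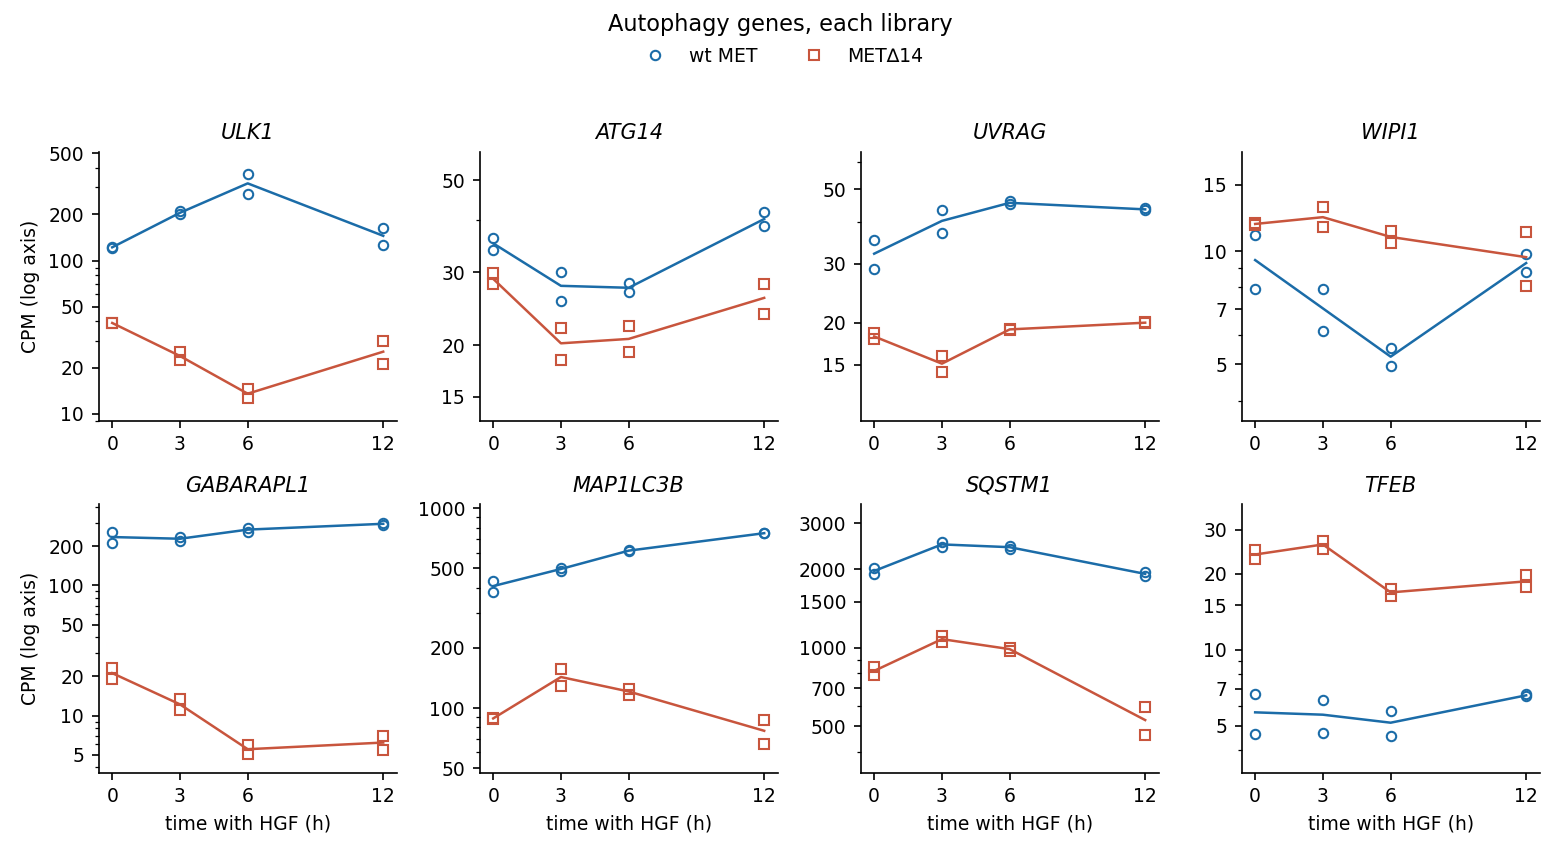
CPM on log axes against hours of HGF for ULK1, ATG14, UVRAG, WIPI1, GABARAPL1, MAP1LC3B, SQSTM1 and TFEB, with circles for wt MET libraries, squares for MET∆14 libraries and lines through the means of the 2 libraries. ULK1 goes up to 366 CPM in wt MET and down to 12.6 CPM in MET∆14 at 6 h, and GABARAPL1 goes down to 5.09 CPM in MET∆14.

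The promoters of the members, lysosomal and autophagy genes alike, were searched for the core of the CLEAR element, where TFEB is known to act, and for a FOXO motif. RefSeq promoters (build GRCh38.p14, 250 bases before to 50 after the start site listed there) were found for 26 of the 33 members. That site is not always the start of the gene as annotated here. The CTSA and CTSD windows lie inside their genes. The E-box core CACGTG, which reads the same on both strands, was in 8 of the 26 (30.8%) and in 7.43% of all 27305 promoters. Among promoters of genes in the count table it was in 8.92%. The 8 were those of ATG14, CD63, CTSA, CTSD, GAA, LAMP1, MCOLN1 and NEU1. TCACGTG on either strand, which holds that core and is part of the CLEAR element, was in all of these but CD63 (26.9%, against 3.82% of all promoters). The FOXO motif GTAAACA on either strand was in CTSL alone (3.85%, against 3.41%). For promoters of genes in the count table these shares were 4.83% and 2.62%. The 250 bases before the start are shown for LAMP1, which had the most matches, and for CTSA, CTSD and GAA, the matched genes that fell at 12 h in both lines. They run from 5′ to 3′ on the strand of the gene with CACGTG in capitals. They lie at chr13:113296989-113297238 on the plus strand (LAMP1), chr20:45891085-45891334 on the plus strand (CTSA), chr11:1763928-1764177 on the minus strand (CTSD) and chr17:80101331-80101580 on the plus strand (GAA).
LAMP1: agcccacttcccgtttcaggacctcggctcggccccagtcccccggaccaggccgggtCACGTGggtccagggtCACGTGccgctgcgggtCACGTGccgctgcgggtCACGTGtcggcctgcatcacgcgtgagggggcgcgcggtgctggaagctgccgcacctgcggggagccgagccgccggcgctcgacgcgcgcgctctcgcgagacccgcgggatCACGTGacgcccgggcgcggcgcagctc
CTSA: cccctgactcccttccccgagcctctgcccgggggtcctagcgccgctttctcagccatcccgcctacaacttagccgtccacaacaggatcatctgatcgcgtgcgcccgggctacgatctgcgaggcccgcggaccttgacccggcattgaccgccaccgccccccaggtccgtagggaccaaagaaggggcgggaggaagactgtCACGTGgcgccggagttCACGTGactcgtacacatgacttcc
CTSD: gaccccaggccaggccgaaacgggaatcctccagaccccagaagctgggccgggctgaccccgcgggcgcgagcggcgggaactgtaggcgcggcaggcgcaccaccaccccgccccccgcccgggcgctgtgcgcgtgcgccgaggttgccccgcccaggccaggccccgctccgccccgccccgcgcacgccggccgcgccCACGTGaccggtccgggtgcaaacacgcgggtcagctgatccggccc
GAA: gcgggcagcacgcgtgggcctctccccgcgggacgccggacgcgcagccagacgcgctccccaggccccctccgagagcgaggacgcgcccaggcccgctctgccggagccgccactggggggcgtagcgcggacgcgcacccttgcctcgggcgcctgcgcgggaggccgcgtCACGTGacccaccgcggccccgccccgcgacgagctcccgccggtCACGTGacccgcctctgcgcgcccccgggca
Counted from the start site of the window, the 5 complete matches of LAMP1 begin at −192, −176, −159, −142 and −28, and a sixth begins at the last base shown and runs past it. Those of CTSA begin at −42 and −25, those of GAA at −76 and −31, and that of CTSD at −47. Of the 7 members with TCACGTG, 0 were higher and 4 lower at 12 h in each line, with a median log2 fold change of −0.37 in wt MET and −0.38 in MET∆14 cells. The other 19 members with a promoter found lacked TCACGTG, among them ULK1, GABARAPL1, MAP1LC3B and SQSTM1. At 12 h 4 of these 19 were higher and 6 lower in wt MET cells (median 0.01). In MET∆14 cells 1 was higher and 7 lower (median −0.21). Over all genes tested, 16.9% were higher and 18.2% lower at 12 h in wt MET cells, and 18.3% and 20.1% in MET∆14 cells. At 3 and 6 h 0 of the 7 were higher in either line. Lower were 2 and 5 in wt MET and 2 and 3 in MET∆14 cells. Of the 19, 4 and 5 were higher and 1 and 3 lower in wt MET cells. In MET∆14 cells 3 and 4 were higher and 3 and 3 lower. The shares of all genes at 3 and 6 h are given above. Before HGF 6 of the 7 and 10 of the 19 were higher in MET∆14 cells, and 1 and 8 lower. Of all genes 40.6% were higher and 39.6% lower. The motif counts describe the letters in the windows, and members with and without the motif were not tested against each other.

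More of the lysosomal peptidases were called lower than higher at 12 h in each line. Of 7, 0 were higher and 4 lower in wt MET cells, with a median log2 fold change of −0.34. In MET∆14 cells 1 was higher and 3 lower, with a median of −0.32. The shares lower, 57.1% in wt MET and 42.9% in MET∆14 cells, stood beside 18.2% and 20.1% of all genes. CTSD was at 271 and 243, 220 and 201, 170 and 190, and 123 and 126 CPM in wt MET cells, and at 1740 and 1570, 1460 and 1430, 1330 and 1480, and 889 and 1190 CPM in MET∆14 cells. All later libraries lay below both 0 h libraries in each line. CTSD fell 2.06-fold at 12 h in wt MET cells (log2 −1.04, SE 0.127, adjusted p = 3.08e-05), the largest fall of a member there. The fall was 1.59-fold in MET∆14 cells (log2 −0.67, SE 0.124, adjusted p = 0.000632). The MET∆14 value was −0.47 without 12 h replicate 1 and −0.90 without 12 h replicate 2, and both stayed called. The 6 h fall in wt MET cells (log2 −0.51, adjusted p = 0.00542) was lost without 0 h replicate 1 (adjusted p = 0.0539) or 6 h replicate 1 (adjusted p = 0.0875). CTSD overlaps other annotated exons over 27.3% of its exon length on its own strand and 23.4% on the other.

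CTSA was at 58.1 and 60.7, 49.9 and 47.4, 44.5 and 45.3, and 43.1 and 40.1 CPM in wt MET cells and at 461 and 432, 384 and 391, 385 and 412, and 329 and 356 CPM in MET∆14 cells. No later library reached those at 0 h in either line. The fall at 12 h was −0.51 on the log2 scale in wt MET cells (SE 0.0838, adjusted p = 0.000298) and −0.38 in MET∆14 cells (SE 0.0773, adjusted p = 0.00125), both kept with any 1 library left out. CTSA shares 21.5% of its exon length with NEURL2 on the other strand, which had 0.221 to 2.35% as many counts. CTSL, a cysteine endopeptidase, went the other way in MET∆14 cells. It was at 101 and 88.3, 106 and 108, 132 and 139, and 118 and 132 CPM there and at 149 and 143, 125 and 131, 132 and 130, and 116 and 122 CPM in wt MET cells. Each later library was above both at 0 h in MET∆14 and below both in wt MET cells. CTSL rose 1.44-fold at 6 h (log2 0.52, SE 0.0829, adjusted p = 0.000122) and 1.32-fold at 12 h (log2 0.40, SE 0.0834, adjusted p = 0.00146) in MET∆14 cells. Its fall at 12 h in wt MET cells (log2 −0.29, SE 0.0826, adjusted p = 0.0122) was lost without wt MET 0 h replicate 1 (adjusted p = 0.074) or 12 h replicate 1 (adjusted p = 0.106). Its relative CTSV had 0.275 to 63% as many counts. CTSH was at 433 and 411, 440 and 422, 388 and 451, and 220 and 343 CPM in MET∆14 cells, with only the 12 h libraries below both at 0 h. Its 12 h fall of −0.59 (SE 0.152, adjusted p = 0.00716) was −0.30 without 12 h replicate 1, −0.95 without 12 h replicate 2, and not called without 0 h replicate 1 (adjusted p = 0.0542) or with MET∆14 fitted alone (adjusted p = 0.0584). In wt MET cells CTSH ranged from 3.07 to 5.14 CPM and was not called. CTSZ, a carboxypeptidase, fell at 12 h in wt MET cells (69.2 to 92.0 CPM over all times, log2 −0.34, adjusted p = 0.00553). The call was lost without wt MET 0 h replicate 1 (adjusted p = 0.0569). CTSZ ranged from 276 to 341 CPM in MET∆14 cells with no call. It shares 31.7% of its exon length with NELFCD on the other strand, which had 39 to 58.3% as many counts, so that CTSZ is uncertain. CTSB, a cysteine protease (means of the duplicates 216 to 272 CPM in wt MET and 373 to 480 CPM in MET∆14), was not called at any time. TPP1, a tripeptidyl peptidase, ranged from 76.9 to 86.4 CPM in wt MET and from 69.3 to 108 CPM in MET∆14 cells and was not called either. For TPP1 the MET∆14 12 h duplicates stood at 108 and 69.3 CPM, on either side of those at 0 h.

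The glycosidases and sulfatases, which take sugars and sulfate off glycolipids, glycogen and glycosaminoglycans, fell most widely in wt MET cells. Of 10, 3 were lower at 3 h, 6 at 6 h and 8 at 12 h, while 1, IDS, was higher at each time, and the 12 h median was −0.51. Of all genes, 7.16%, 17.8% and 18.2% were lower in wt MET cells at these times. MET∆14 cells had 2, 2 and 5 of them lower and 0 higher, with a 12 h median of −0.26. These shares of 20%, 20% and 50% stood beside 16.1%, 22.5% and 20.1% of all genes, so those at 3 and 6 h were near the background. GAA, the acid glucosidase that breaks down glycogen, was at 60.9 and 55.1, 52.7 and 43.2, 42.0 and 44.7, and 32.5 and 31.6 CPM in wt MET cells. The MET∆14 duplicates of GAA were at 122 and 116, 95.1 and 98.8, 83.6 and 104, and 79.9 and 82.2 CPM. All later libraries were below both at 0 h in each line. GAA fell 1.81-fold at 12 h in wt MET cells (log2 −0.85, SE 0.113, adjusted p = 6.11e-05) and 1.47-fold in MET∆14 cells (log2 −0.55, SE 0.107, adjusted p = 0.000871). For MET∆14 the 6 h fall (log2 −0.34, adjusted p = 0.0165) was lost without 0 h replicate 1 (adjusted p = 0.0903) or 6 h replicate 1 (log2 −0.20, adjusted p = 0.189). Its 3 h fall (log2 −0.29, adjusted p = 0.0465) was lost in 9 of 16 fits. The wt MET 6 h fall (log2 −0.42, adjusted p = 0.00923) was lost without 0 h replicate 1 (adjusted p = 0.0842) or 6 h replicate 1 (adjusted p = 0.0979).

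GLB1, the acid beta-galactosidase, was at 53.8 and 46.3, 43.5 and 37.4, 34.9 and 34.2, and 29.5 and 30.4 CPM in wt MET cells and at 70.2 and 63.6, 59.1 and 59.7, 60.9 and 64.0, and 51.5 and 59.2 CPM in MET∆14 cells. All later wt MET libraries were below both at 0 h, and in MET∆14 cells the 6 h libraries overlapped those at 0 h. It fell 1.45-fold at 6 h (log2 −0.53, SE 0.105, adjusted p = 0.0012) and 1.67-fold at 12 h (log2 −0.74, SE 0.105, adjusted p = 0.000103) in wt MET cells. The MET∆14 12 h fall (log2 −0.28, adjusted p = 0.0418) was lost in 11 of 16 fits. GUSB, the beta-glucuronidase, was at 19.8 and 18.0, 13.5 and 13.2, 13.3 and 12.0, and 11.7 and 11.1 CPM in wt MET cells and at 84.3 and 74.8, 61.1 and 65.3, 61.6 and 75.9, and 70.8 and 70.5 CPM in MET∆14 cells. The wt MET libraries after HGF were all below those at 0 h, and the MET∆14 libraries overlapped at 6 h. GUSB fell 1.49-fold at 6 h (log2 −0.58, SE 0.123, adjusted p = 0.00225) and 1.65-fold at 12 h (log2 −0.72, SE 0.123, adjusted p = 0.000399) in wt MET cells. The 3 h falls (log2 −0.50, adjusted p = 0.0114 in wt MET, log2 −0.33, adjusted p = 0.0219 in MET∆14) were each lost without 0 h replicate 1 or either 3 h library of the line (adjusted p up to 0.0931 and 0.201). That of MET∆14 was lost also with this line fitted alone (adjusted p = 0.102). Its pseudogene GUSBP1 had 16.5 to 55.9% as many counts, so that GUSB is uncertain. SGSH, the sulfamidase of heparan sulfate breakdown, was at 18.2 and 18.9, 14.8 and 12.6, 12.6 and 12.9, and 15.2 and 12.9 CPM in wt MET cells and at 53.3 and 56.6, 41.9 and 49.4, 56.2 and 60.8, and 70.2 and 57.6 CPM in MET∆14 cells. It lay below 0 h at every later time in wt MET cells, and in MET∆14 cells it lay below 0 h at 3 h and above at 12 h. The wt MET 6 h fall (log2 −0.55, SE 0.137, adjusted p = 0.00628) was lost without 6 h replicate 1 (adjusted p = 0.0541). The 12 h fall (log2 −0.40, adjusted p = 0.0309) was lost without either 0 h library or 12 h replicate 2 (adjusted p up to 0.195). The 3 h fall (log2 −0.44, adjusted p = 0.0399) was lost in 12 of 16 fits.

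IDS rose in wt MET cells, at 403 and 375, 460 and 456, 521 and 537, and 594 and 563 CPM, whereas MET∆14 cells held 81.9 to 94.4 CPM with no call. All later wt MET libraries were above both at 0 h. The rise was 1.36-fold at 6 h (log2 0.44, SE 0.0731, adjusted p = 0.000291) and 1.49-fold at 12 h (log2 0.57, SE 0.0732, adjusted p = 4.44e-05). That at 3 h (log2 0.24, adjusted p = 0.0369) was lost without 0 h replicate 2 or either 3 h library of wt MET (adjusted p up to 0.111). NEU1, the lysosomal sialidase, was at 168 and 158, 130 and 138, 130 and 133, and 107 and 129 CPM in MET∆14 cells, all below 0 h after HGF. NEU1 was at 107 and 130, 139 and 129, 145 and 141, and 148 and 138 CPM in wt MET cells, above 0 h at 6 and 12 h. It fell 1.39-fold at 12 h in MET∆14 cells (log2 −0.47, SE 0.104, adjusted p = 0.0024). Its 6 h fall (log2 −0.30, adjusted p = 0.0259) was lost without any 1 of the 4 MET∆14 0 h and 6 h libraries (adjusted p up to 0.141) and with MET∆14 fitted alone (adjusted p = 0.0846). No wt MET time was called for NEU1. MAN2B1, an alpha-mannosidase, went from 17.6 and 16.6 CPM at 0 h to 8.29 and 11.0 CPM at 12 h in wt MET cells (1.8-fold, log2 −0.84, SE 0.125, adjusted p = 0.000138). It was between 52.0 and 61.3 CPM in MET∆14 cells with no call. It shares 21.2% of its exon length on its own strand with AC010422.3, which had 1.92 to 49.8% as many counts. HEXA, the alpha subunit of beta-hexosaminidase, fell from 136 and 143 CPM to 102 and 100 CPM at 12 h in wt MET cells (log2 −0.46, SE 0.0988, adjusted p = 0.00212). HEXA ranged from 94.6 to 131 CPM in MET∆14 cells. Its 12 h fall there (log2 −0.29, adjusted p = 0.0307) was −0.48 without 12 h replicate 2 and −0.13 without 12 h replicate 1 (adjusted p = 0.256), and was lost also without either 0 h library of that line (adjusted p = 0.119 without replicate 1 and 0.113 without replicate 2). With MET∆14 fitted alone its adjusted p was 0.156, and it missed the threshold by DESeq2 too (adjusted p = 0.0577). NAGLU, which removes N-acetylglucosamine from heparan sulfate, fell from 38.1 and 39.9 CPM to 27.3 and 25.4 CPM at 12 h in wt MET cells (log2 −0.56, SE 0.109, adjusted p = 0.0011) and was not called in MET∆14 cells (34.0 to 42.3 CPM). GLA, the alpha-galactosidase, fell at 12 h in MET∆14 cells from 67.0 and 66.0 CPM to 42.8 and 51.0 CPM (log2 −0.51, SE 0.107, adjusted p = 0.00157). The wt MET fall of GLA (42.0 and 50.4 to 35.4 and 32.2 CPM, log2 −0.45, adjusted p = 0.00529) was lost without 0 h replicate 2 (log2 −0.31, adjusted p = 0.0768) or 12 h replicate 2 (adjusted p = 0.0596).

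The membrane proteins had few calls in MET∆14 cells after HGF, and the lipid-handling proteins were called after HGF only there. Of the 6 membrane proteins, 1 was higher and 1 lower at each time in wt MET cells. That was 33.3% called, beside 17.4%, 34.2% and 35.1% of all genes at 3, 6 and 12 h. In MET∆14 cells 1 was higher at 3 and at 6 h and 0 at 12 h. The shares called there were 16.7%, 16.7% and 0%, beside 31.7%, 44.1% and 38.3% of all genes. NPC1, which exports cholesterol from the lysosome, was at 249 and 298, 365 and 339, 386 and 363, and 352 and 345 CPM in wt MET cells. In MET∆14 cells it was at 99.1 and 97.0, 140 and 145, 130 and 138, and 119 and 109 CPM. All libraries after HGF were above both at 0 h in each line. The rise at 6 h was 1.37-fold in each line (log2 0.45, SE 0.0907, adjusted p = 0.0014 in wt MET, log2 0.45, SE 0.0927, adjusted p = 0.00103 in MET∆14). At 3 h in MET∆14 cells it was 1.45-fold (log2 0.54, SE 0.0929, adjusted p = 0.000417). The wt MET rises at 3 h (log2 0.36, adjusted p = 0.0118) and 12 h (log2 0.35, adjusted p = 0.00752) were lost without wt MET 0 h replicate 1 (log2 0.24 and 0.23, adjusted p = 0.137 and 0.0982), and without 3 h replicate 1 (adjusted p = 0.082) and 12 h replicate 1 (adjusted p = 0.0657), respectively. The 12 h value in MET∆14 cells, 0.22 on the log2 scale, was not called. LAMP1, a heavily glycosylated protein of the lysosomal membrane, was at 132 and 154, 120 and 117, 124 and 117, and 115 and 107 CPM in wt MET cells, below 0 h throughout. It was at 274 and 271, 247 and 252, 255 and 285, and 244 and 247 CPM in MET∆14 cells with no call. Its wt MET 12 h fall (log2 −0.37, SE 0.0856, adjusted p = 0.00406) was lost without 0 h replicate 2 (adjusted p = 0.0514) or 12 h replicate 2 (adjusted p = 0.0506). Those at 3 and 6 h were lost in 13 of 16 fits each. LAMP2, the receptor of chaperone-mediated autophagy in one of its forms, lay at 104 to 127 CPM in wt MET and 348 to 436 CPM in MET∆14 cells. The tetraspanin CD63 lay at 236 to 268 and 164 to 238 CPM. SCARB2, which carries glucocerebrosidase to the lysosome, lay at 63.9 to 88.1 and 156 to 208 CPM, and the calcium channel MCOLN1 at 4.58 to 6.08 and 16.1 to 20.1 CPM. None of these 4 was called at a single time in either line, and neither was any of them over the 3 times together. The soluble lipid carriers were called in MET∆14 cells at 12 h alone. NPC2, which hands cholesterol to NPC1, went from 70.5 and 69.0 CPM to 37.2 and 58.3 CPM (log2 −0.56, SE 0.151, adjusted p = 0.00872). That value was −0.26 without 12 h replicate 1 (adjusted p = 0.0613) and −0.92 without 12 h replicate 2, and was not called without 0 h replicate 1 (adjusted p = 0.0533) or with MET∆14 fitted alone (adjusted p = 0.065). PSAP went from 1150 and 1050 CPM to 767 and 922 CPM (log2 −0.38, SE 0.103, adjusted p = 0.00912), a call lost without 0 h replicate 1 (adjusted p = 0.0978) or with MET∆14 fitted alone (adjusted p = 0.0728). NPC2 ranged from 36.8 to 46.2 CPM and PSAP from 1230 to 1370 CPM in wt MET cells.

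**Figure D4:**
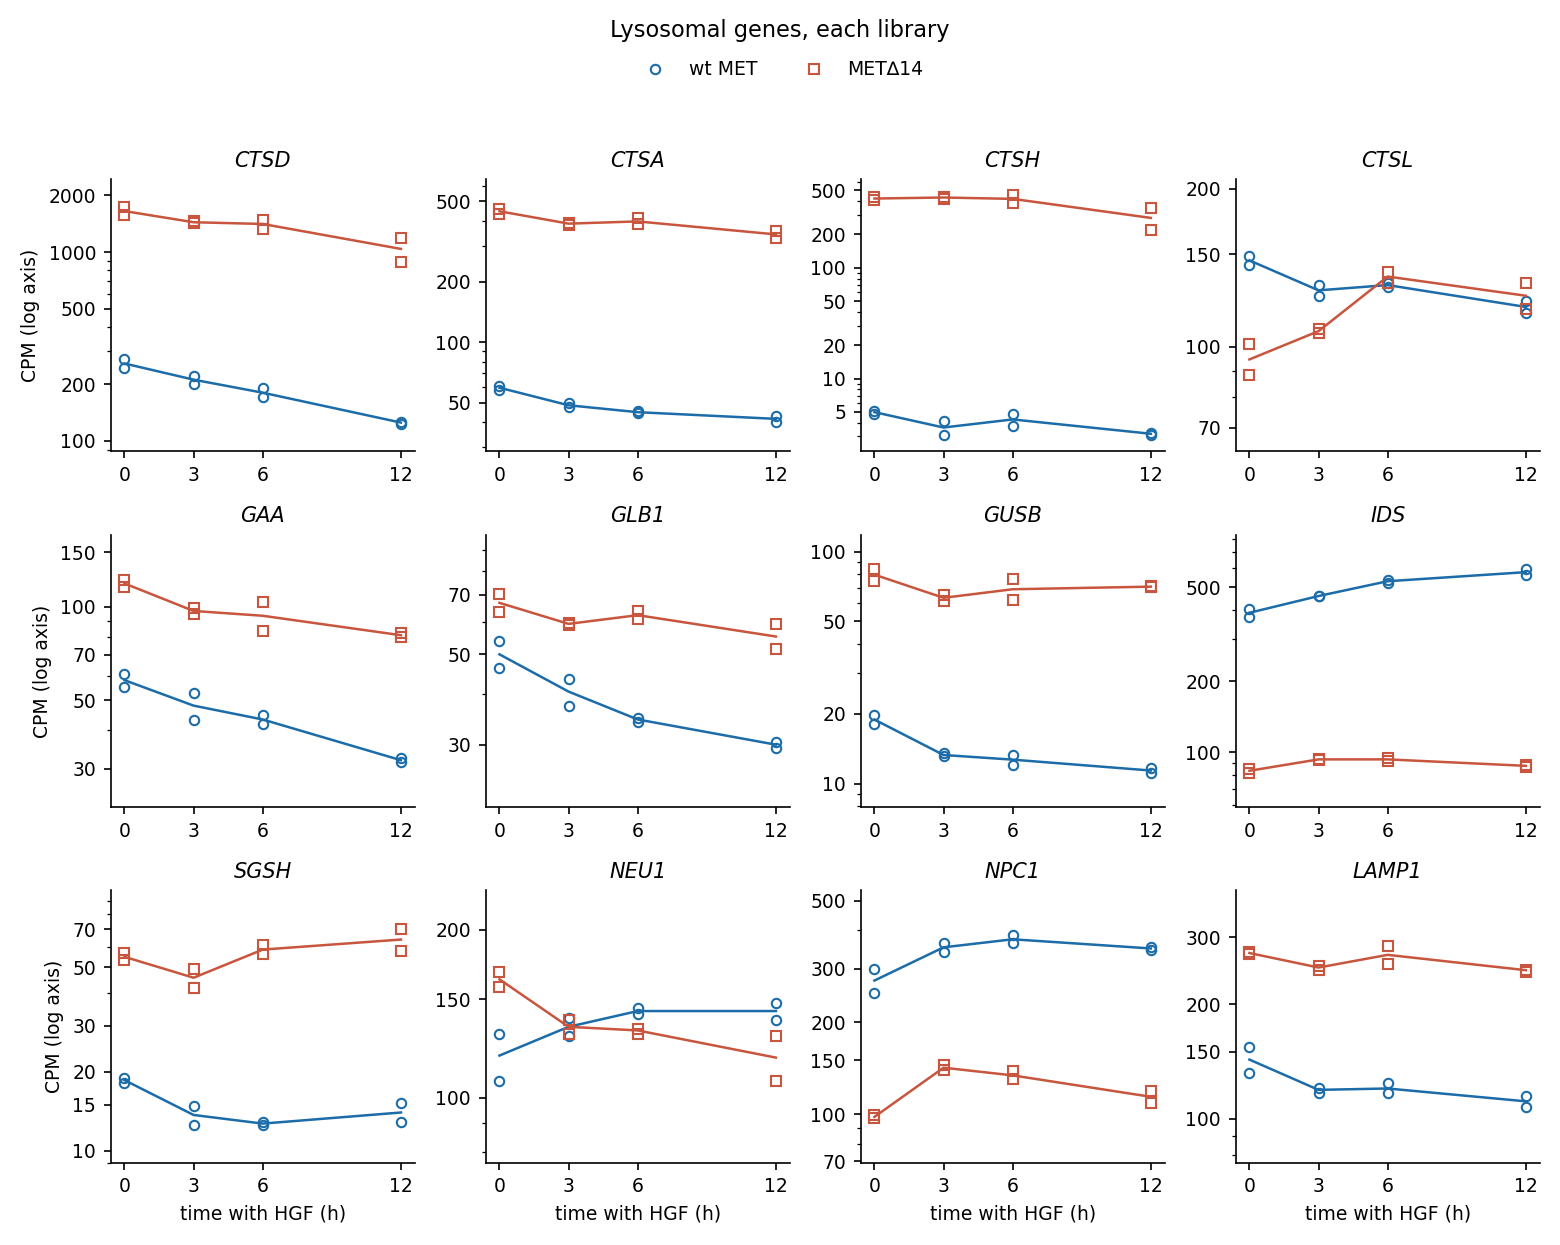
CPM on log axes against hours of HGF for 12 lysosomal members, with circles for wt MET libraries, squares for MET∆14 libraries and lines through the means of the 2 libraries. CTSD, CTSA and GAA slope down in both lines, CTSL and SGSH part between them, and CTSH is at most 5.14 CPM in wt MET.

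Whether a response differed between the lines was tested directly, as the difference of the changes from 0 h. It did for 12 members over the 3 times (5 with a higher and 7 with a lower mean response in MET∆14), where 37.6% of all genes did, a share close to that of the members. The count was 8 without wt MET 12 h replicate 2 and 21 without MET∆14 12 h replicate 2. Of the 12, 7 stayed called with any 1 library left out, namely CTSL and MAN2B1 with a higher response in MET∆14, and IDS, NEU1, GABARAPL1, MAP1LC3B and ULK1 with a lower one. The difference was widest for ULK1 at 6 h, at −2.93 on the log2 scale (SE 0.236, adjusted p = 9.03e-07), after −1.47 at 3 h (SE 0.23, adjusted p = 0.000529). At 12 h the ULK1 difference of −0.86 (SE 0.229, adjusted p = 0.0142) was lost without wt MET 12 h replicate 1 or MET∆14 12 h replicate 2 (adjusted p up to 0.072). For GABARAPL1 it was −2.10 at 6 h (SE 0.196, adjusted p = 2.16e-06) and −2.13 at 12 h (SE 0.199, adjusted p = 4.84e-06). All 3 of the ATG8 proteins and receptor differed at 12 h, with −1.09 for MAP1LC3B (SE 0.169, adjusted p = 0.00032) and −0.59 for SQSTM1 (SE 0.151, adjusted p = 0.0107). In that 12 h test 11 members differed, 33.3% of them, beside 24% of all genes. The SQSTM1 difference was lost without MET∆14 0 h replicate 1 (adjusted p = 0.0598). Among the hydrolases the response of CTSL was higher in MET∆14 cells at 6 h (0.68, SE 0.117, adjusted p = 0.000427) and 12 h (0.70, SE 0.117, adjusted p = 0.000589), and that of MAN2B1 at 12 h (0.71, SE 0.161, adjusted p = 0.00474). NEU1 differed the other way at 6 h (−0.57, SE 0.147, adjusted p = 0.00796) and 12 h (−0.74, SE 0.147, adjusted p = 0.00209), and IDS at 12 h (−0.50, SE 0.106, adjusted p = 0.00298).

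Set side by side, the lines shared no control library. At 3 h NPC1 and SQSTM1 were called higher and GUSB lower in both. At 6 h NPC1, SQSTM1 and MAP1LC3B were called higher and GAA and ATG14 lower in both. At 12 h CTSA, CTSD, GAA, GLA, GLB1 and HEXA were called lower in both. Opposite calls were made for ULK1 at 3 and 6 h (higher in wt MET, lower in MET∆14) and at 12 h for GABARAPL1 (higher in wt MET) and CTSL (lower in wt MET). The remaining members were called in at most 1 line at a given time, which does not show that the lines differed there.

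**Figure D5:**
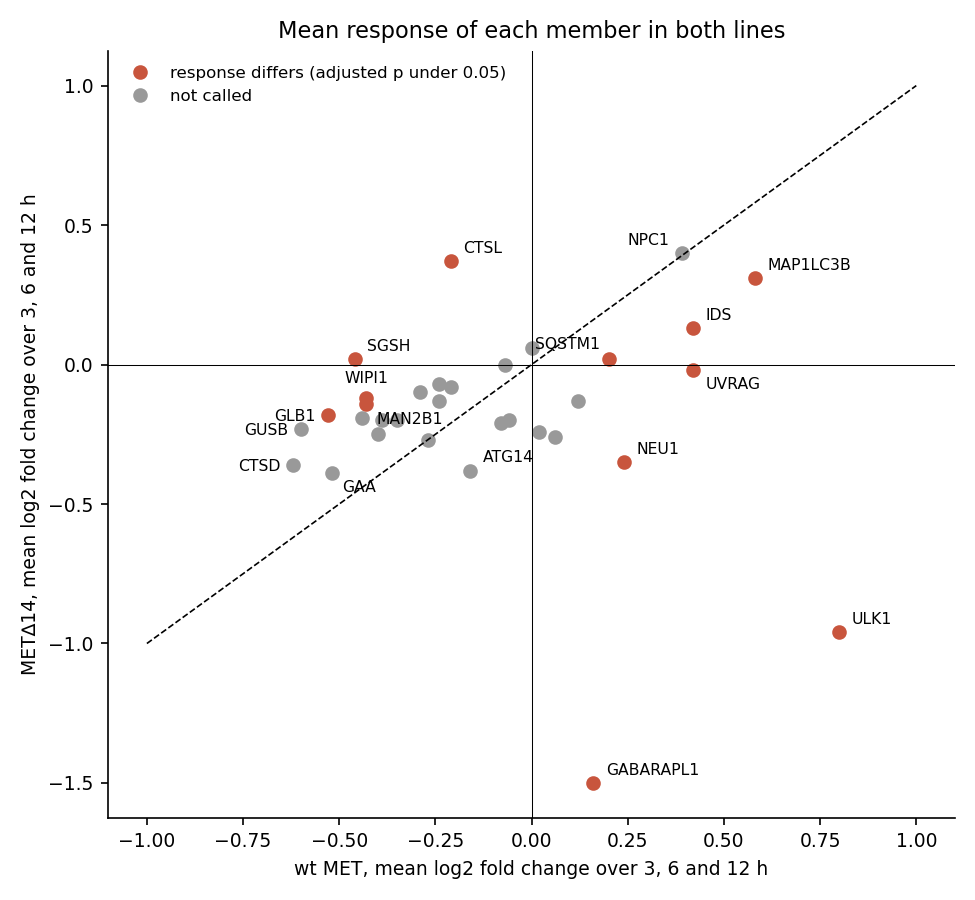
Mean log2 fold change over 3, 6 and 12 h against 0 h for each of the 33 members, wt MET on the horizontal and MET∆14 on the vertical axis, coloured by whether the response differed between the lines. ULK1 (0.80 and −0.96) and GABARAPL1 (0.16 and −1.50) lie far from the diagonal, and CTSD (−0.62 and −0.36) and NPC1 (0.39 and 0.40) near it.

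The other genes of the pathway are given by counts, with some of the widest changes. They were listed by their known functions, but with earlier results of these data known. Of 31 other lysosomal hydrolases and sorting proteins, 1 was higher and 16 lower at 12 h in wt MET cells (median log2 −0.54). In MET∆14 cells 1 was higher and 15 lower (median −0.30). The shares lower were 51.6% and 48.4%, beside 18.2% and 20.1% of all genes. Their largest falls over the 3 times were those of LIPA, the acid lipase, in wt MET cells (24.1 and 20.5 CPM at 0 h, 9.34 and 11.2 CPM at 12 h, mean log2 −0.97, adjusted p = 0.000154) and that of SORT1, a sorting receptor, in MET∆14 cells (27.2 and 24.5 CPM to 10.1 and 11.7 CPM, mean log2 −0.86, adjusted p = 8.02e-06). CTSC, a dipeptidyl peptidase, rose in MET∆14 cells (75.4 and 76.4 CPM to 141 and 166 CPM, mean log2 0.68, adjusted p = 3.16e-06). Of 34 other autophagy genes, 11 were higher and 3 lower over the 3 times in wt MET cells and 7 higher and 16 lower in MET∆14 cells. These are 41.2% and 67.6% of the list, beside 40.3% and 54.1% of all genes. The response differed between the lines for 13, each lower in MET∆14, and this share of 38.2% was close to the 37.6% of all genes. ATG16L1, part of the enzyme that attaches ATG8 proteins to lipid, rose in wt MET cells (87.5 and 85.4 CPM at 0 h, 189 and 222 CPM at 6 h, mean log2 0.90, adjusted p = 7.37e-07) and in MET∆14 cells (34.3 and 35.7 CPM to 50.7 and 51.2 CPM, mean log2 0.57, adjusted p = 0.000184). NBR1, a cargo receptor like SQSTM1, fell in MET∆14 cells (102 and 96.1 CPM at 0 h, 45.8 and 45.7 CPM at 6 h, mean log2 −0.87, adjusted p = 2.42e-07). Of 25 genes that control mTORC1 at the lysosome or belong with TFEB, 7 were higher and 5 lower in wt MET cells and 3 higher and 12 lower in MET∆14 cells, with a differing response for 11. The shares were 48%, 60% and 44%, beside 40.3%, 54.1% and 37.6% of all genes. FNIP1, the partner of folliculin, rose in wt MET cells (105 and 124 CPM at 0 h, 258 and 263 CPM at 6 h, mean log2 1.03, adjusted p = 9.34e-06). SESN3, a sestrin that restrains mTORC1, fell in MET∆14 cells (86.4 and 81.7 CPM to 18.1 and 17.6 CPM, mean log2 −1.57, adjusted p = 4.68e-08). Of the 21 subunits of the proton pump that acidifies the lysosome, 19 were tested. Of these 6 were higher and 1 lower in wt MET cells and 5 higher and 2 lower in MET∆14 cells, which is 36.8% of those tested in each line, beside 40.3% and 54.1% of all genes.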

How the data were processed

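RNA from cells expressing wt MET or MET∆14 was sequenced in biological duplicates at 0, 3, 6 and 12 h of HGF. The authors trimmed adapters and mapped reads with STAR (2.5.0 in the submitters' processing notes, which also name RSEM 1.3.2) to hg38, and deposited whole-number counts per gene without normalization. The counting step, the annotation and the use of strand are not given in the sources used here, so members that overlap other genes or have near copies are uncertain. The table writes the wt MET line name slightly differently from the titles, and its columns were matched by the rest of the name.

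From these deposited counts, edgeR 4.0.16 (R 4.3.3) gave the tests, by filterByExpr (minimum count 10, minimum total count 15), TMM scaling, and a robust quasi-likelihood model with 1 coefficient for each line and time over all 16 libraries. The script was first tested on simulated data. Adjustment by Benjamini and Hochberg ran over the 15067 genes tested (19306 of the 42351 genes had no count), and the common biological coefficient of variation was 0.0868. Contrasts set each time against 0 h of the same line. F tests covered the 3 times, and the 3 differences between lines. CPM used TMM-scaled library sizes, with a prior count of 2 for log2 values, except for the cell type markers, whose CPM used unscaled totals. Where a library is left out, the remaining library of its condition is assumed to vary like the other conditions. Alternatives were DESeq2 1.42.0 and its size factors, no filter, a replicate block, each line alone, a minimum fold and each library left out. Gene positions come from the GENCODE annotation of hg38 and promoters from RefSeq. Figures were drawn with matplotlib 3.10.9 in Python 3.11.15.

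The members and lists were chosen with earlier results of these data known. Every member is named with values from both lines. Values by library are given for the 4 largest rises and falls of the mean response in each line among members called, the 4 largest differences each way between lines, the 3 most higher and lower at 0 h, and TFEB, SQSTM1, MAP1LC3B, LAMP1 and CTSD. Of the other lists at most the 2 largest changes each way per line are named. Values by library of further members were added after the values were seen. The values of a further gene of the pathway lists are not reported here.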

Additional observations from a re-analysis of the deposited data

Results flagged for a closer look

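The response to HGF of 12 members differed between the lines by edgeR's F test over the 3 differences of the changes from 0 h. Values are means over 3, 6 and 12 h of the log2 response, MET∆14 minus wt MET. It was higher in MET∆14 for CTSL (0.58, adjusted p = 0.000676), SGSH (0.48, adjusted p = 0.0179), GLB1 (0.34, adjusted p = 0.0407), WIPI1 (0.31, adjusted p = 0.0252) and MAN2B1 (0.29, adjusted p = 0.00525). It was lower in MET∆14 for ULK1 (−1.75, adjusted p = 4.06e-06), GABARAPL1 (−1.66, adjusted p = 2.22e-06), NEU1 (−0.59, adjusted p = 0.00556), UVRAG (−0.45, adjusted p = 0.0346), IDS (−0.29, adjusted p = 0.00576), MAP1LC3B (−0.28, adjusted p = 5.8e-05) and SQSTM1 (−0.18, adjusted p = 0.00904). With single libraries left out, GLB1 lost its call in 12 of 16 fits, WIPI1 in 10 and UVRAG in 9. SGSH lost it without wt MET 0 h replicate 2 (adjusted p = 0.0593) and without MET∆14 0 h replicate 1, and SQSTM1 without wt MET 12 h replicate 2 (adjusted p = 0.0674). The small means of MAP1LC3B and SQSTM1 hide responses that parted at 12 h, at −1.09 and −0.59. A test of single libraries against their own condition was not made, since each holds 2. The MET∆14 12 h duplicates differed by a chi-square of 32.9 per degree of freedom over genes, and those of the other conditions by 2.69 to 9.42.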

How the results depend on the processing

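Among the values of the named members counted below, no called one changed direction under another setting. Of 246 counts of members called, 211 stayed within 1.5 times the value reported. Asking for an absolute log2 fold change of at least 1 left 0, 1 and 1 members at 3, 6 and 12 h in wt MET and 0, 2 and 1 in MET∆14, with 2 and 2 at any time, 3 for the difference between the lines and 18 at 0 h. Without both MET∆14 12 h libraries, an alternative chosen after seeing the data, the MET∆14 3 h count of 8 became 13. With each of the 16 libraries left out in turn, the counts ranged from 2 to 15 (wt MET 3 h), 9 to 20 (6 h), 12 to 21 (12 h), 4 to 18 (MET∆14 3 h), 5 to 15 (6 h), 9 to 21 (12 h), 16 to 26 and 14 to 26 (any time), 8 to 21 (difference), 26 to 31 (0 h) and 10 to 14 (effect of time averaged over the lines). Same-numbered libraries did not deviate together (correlations −0.159 to 0.035), so the number is no pairing; a replicate block took the wt MET 3 h count from 10 to 5 and left the other counts within 1.5 times. DESeq2, its size factors, no filter and each line fitted alone left every count within 1.5 times, though single calls were lost. With no filter the wt MET 3 h count was 7, of which 6 were among the 10. With each line alone it was 14, the MET∆14 12 h count was 10 and that at any time 12. Of 1699 values of the named members, 1574 kept their side of the threshold, 90 lost a call and 34 gained one. The remaining 1, which was not called, changed sign. Duplicates limit small changes: many calls under 0.4 on the log2 scale were lost with 1 library.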
